A study of Mus musculus with 8 samples.

Results

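Chemokines are small secreted proteins that direct cell migration by binding receptors coupled to G proteins, and they are named for the spacing of the cysteines near their amino terminus: CC, CXC, CX3C and C (XC). Some are made by resting stromal cells, such as Cxcl12, which retains haematopoietic and germ cells in their niches, and others are transcribed within hours of exposure to IL-1, TNF or interferon, through NF-kB and other factors. Fibroblasts are a known source of Cxcl12 and, when activated, of the neutrophil-attracting CXC genes and of Ccl2, which draws monocytes. The chemokine ligand genes were taken as every row of the deposited gene table whose symbol is Ccl or Cxcl with a number, Cx3cl1 or Xcl1. The rule gave 39 of 55401 listed genes: 24 Ccl, 13 Cxcl, 1 Cx3cl and 1 Xcl gene. Pf4 and Ppbp are CXC chemokines whose symbols fall outside it.

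The genes were read in RNA-seq of 8 immortalized lines of mouse embryonic fibroblasts (MEFs), 4 SLMAP3-/- and 4 wild type (WT), with 1 library per line. All lines were of the B6C3F1 strain, came from the bodies of E14.5 embryos without head and organs, were immortalized with the SV40 large T antigen and were grown in medium with 10% fetal bovine serum, without a chemokine-inducing agent named in the labels. In the SLMAP3-/- mice, Cre driven by the CMV promoter had recombined floxed Slmap at exon 3 throughout the body. The study states that immortalized MEFs have lost the shorter isoform SLMAP2. Line numbers are those of the sample labels, which do not tie a line to an embryo. The p-values of the genotype comparison set its difference against the spread between these lines. Whether each line came from a separate embryo is not known from the labels. The data columns of SLMAP3-/- line 3 and WT line 4 carry the same number, 10, and what it stands for is not given. Slmap was at 32.7 to 44.3 CPM (counts scaled to the size of the library, which was normalised by TMM) in SLMAP3-/- and at 124 to 143 CPM in WT lines, with a log2 fold change of -1.84 ± 0.11 (SE, n = 4 per genotype, adjusted p = 0.00119 in edgeR). Totals were 49879059 to 63322486 estimated counts per line, with overlapping ranges in the 2 genotypes.

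The promoters of the inflammatory CXC genes are shown first, because Cxcl3 and Cxcl10 ranged widely between lines. The stretches below are the bases just before the start site, from RefSeq on GRCm38.p6, written 5′ to 3′ on the gene's strand. They lie at chr5:90891125-90891244 (+) for Cxcl1, chr5:90903779-90903898 (+) for Cxcl2, chr5:90785981-90786100 (+) for Cxcl3 and chr5:92348890-92349109 (-) for Cxcl10. Capitals mark letters that match, on either strand, an NF-kB pattern (GGG and TTCC parted by any 3 letters), an interferon response pattern (GAAA and GAAA parted by any 2 letters) or the AP-1 pattern TGANTCA.
Cxcl1: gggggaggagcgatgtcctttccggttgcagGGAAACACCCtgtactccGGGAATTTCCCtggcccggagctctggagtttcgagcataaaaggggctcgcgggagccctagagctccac
Cxcl2: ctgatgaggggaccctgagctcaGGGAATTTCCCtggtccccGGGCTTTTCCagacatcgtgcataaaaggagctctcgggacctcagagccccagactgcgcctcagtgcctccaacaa
Cxcl3: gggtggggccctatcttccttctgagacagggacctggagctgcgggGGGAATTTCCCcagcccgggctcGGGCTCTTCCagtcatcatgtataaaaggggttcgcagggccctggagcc
Cxcl10: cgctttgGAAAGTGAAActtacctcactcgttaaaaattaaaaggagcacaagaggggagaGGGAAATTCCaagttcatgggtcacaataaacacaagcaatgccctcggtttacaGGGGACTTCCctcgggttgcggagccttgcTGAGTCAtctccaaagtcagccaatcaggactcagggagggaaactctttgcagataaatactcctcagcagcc
In Cxcl1, Cxcl2 and Cxcl3 the stretch GGGAATTTCCC, which matches the NF-kB pattern on both strands, began 71, 97 and 73 bases before the start. Cxcl10 had NF-kB matches 159 and 104 bases before its start, an interferon match at 213 and an AP-1 match at 74. Of 34 promoter windows (250 bases before to 50 after the start) of 28 members, 7 held the NF-kB pattern, against 5.56% of all 32851 windows. The 7 windows belonged to Cxcl1, Cxcl2, Cxcl3, Cxcl10, Ccl1, Ccl9 and Ccl20. The other members, among them Ccl2, Ccl5, Ccl7, Cxcl5 and Cxcl16, had no window and were not searched. The interferon pattern was in 3 member windows (3.44% of all) and TGANTCA in 7 (7.81% of all). TATAAA was in 10 (13.6% of all). Such matches are a description of the letters and not evidence of binding.

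Of the 39 genes, 16 passed the filter on low counts, namely 8 Ccl genes, 7 Cxcl genes and Cx3cl1. The other 23 comprised 11 genes at 0 counts in every line, 7 with at most 1 to 9 counts in any line, and 5 with at least 10 counts in some line but too few lines to be tested. The 11 genes at 0 were Ccl1, Ccl12, Ccl19, Ccl21a, Ccl21b, Ccl21d, Ccl22, Ccl24, Ccl26, Cxcl13 and Xcl1. They include the lymphoid homing chemokines that bind Ccr7 and Cxcr5 (Ccl19, the Ccl21 genes and Cxcl13). A count of 0 allows up to 3 counts, or 0.0601 CPM in the shallowest library, and this covers counting error only. The 7 genes under 10 counts were Ccl3, Ccl4, Ccl6, Ccl8, Ccl11, Ccl17 and Ccl27b, and Ccl3 and Ccl4 are made mainly by macrophages and T cells. Stretches of Ccl19, Ccl21a, Ccl21b, Ccl21d and Ccl27b are shared with near-identical copies, so reads from them could have been assigned elsewhere.

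**Figure D1:**
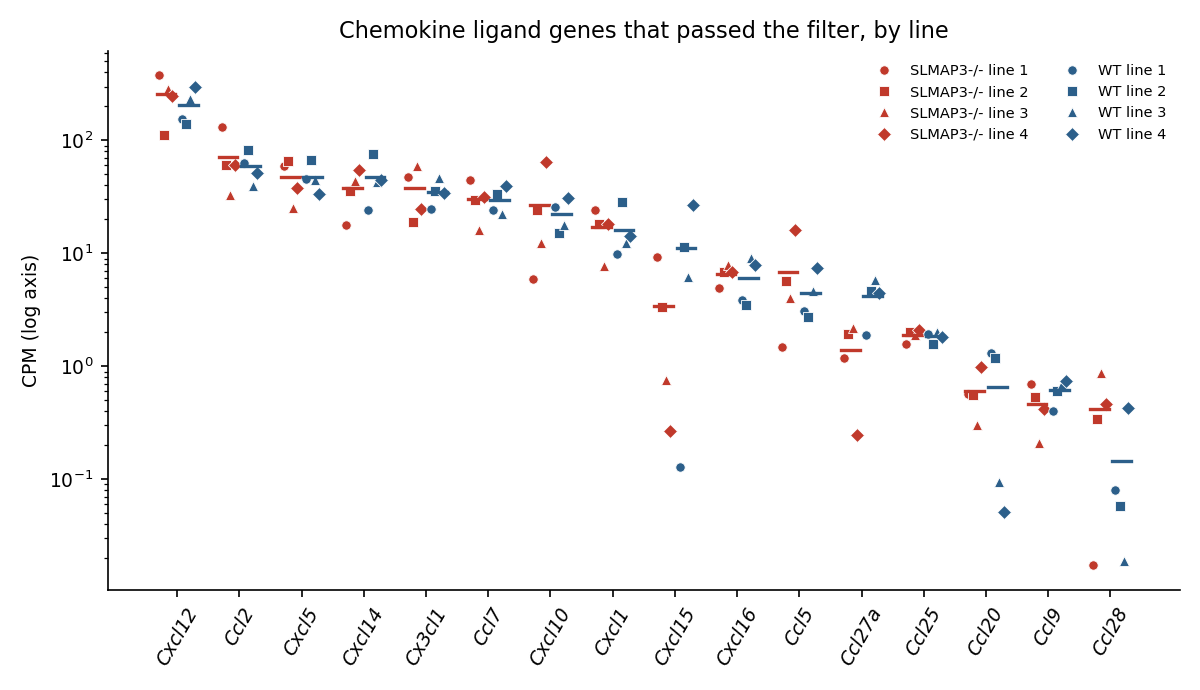
CPM of the 16 chemokine ligand genes that passed the filter, on a log axis, in each SLMAP3-/- (red) and WT (blue) line; symbols mark the line number and bars the mean of 4 lines. Cxcl12 is highest at 111 to 377.5 CPM, and the red and blue points overlap in every gene.

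Cxcl12, the ligand of Cxcr4 and Ackr3 (ENSMUSG00000061353.11, chromosome 6, 117168535 to 117181367, + strand), was the member with the most reads in every line. It was at 377.5, 111, 284.5 and 249 CPM in SLMAP3-/- lines 1 to 4 and at 154, 141, 234 and 294.5 CPM in WT lines 1 to 4. The lowest and the highest line were both SLMAP3-/-, 3.40-fold apart, and the genotypes overlapped. Cxcl12 made up 27.9% to 56.8% of the summed CPM of the 39 genes, which ran from 384 to 730 CPM.

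The level per transcript was compared with the counts divided by the median length of a gene's annotated coding transcripts and scaled to the same sum in every line as TPM are. On that scale the means over 8 lines were 126.5 for Ccl2, 124.5 for Cx3cl1 and 118 for Cxcl12. The 3 were thus closer than their read counts, and their SDs between lines (57.0, 50.3 and 47.2) exceeded the differences. Ccl7 (59.8) came next, followed by Cxcl5 (47.6), Cxcl14 (41.0), Cxcl10 (32.0), Cxcl1 (27.6) and Ccl5 (17.1), each of these 5 within 1 SD of the gene before it. These 9 of the 16 genes lay above the median tested gene, at 15.1 on the same scale. Ccl27a (8.84), Cxcl15 (5.50), Cxcl16 (3.79), Ccl25 (3.54) and Ccl20 (1.24) were lower, and Ccl9 (0.286) and Ccl28 (0.123) were near the bottom of the tested genes. The length matters for the order: with the union of all exons, Cx3cl1 went from place 2 to place 7 with a value of 32.9, and 10 of the 16 genes changed place.

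Among the CXC chemokines that carry the ELR residues and draw neutrophils through Cxcr2, Cxcl5 and Cxcl1 were present in every line. They lie with Cxcl2, Cxcl3 and Cxcl15 in a stretch of 146.6 kb on chromosome 5. Cxcl5 was at 59.3, 65.8, 25.3 and 37.7 CPM in SLMAP3-/- lines 1 to 4 and at 45.4, 67.6, 44.5 and 33.7 CPM in WT lines 1 to 4. Cxcl1 was at 24.1, 18.4, 7.79 and 18.04 CPM in SLMAP3-/- and at 9.84, 28.5, 12.4 and 14.3 CPM in WT lines. Both genes were lowest in SLMAP3-/- line 3 and highest in WT line 2.

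Cxcl15, a gene known from lung epithelium, differed most between lines among the 16 genes. It was at 9.35, 3.34, 0.755 and 0.268 CPM in SLMAP3-/- lines 1 to 4 and at 0.129, 11.4, 6.24 and 26.9 CPM in WT lines 1 to 4. The lowest and the highest were both WT lines, with 8 and 1584 counts, a ratio of 209. The within-genotype SD of its log2 CPM was 2.77, at percentile 99.6 of all tested genes. Cxcl3, 4.9 kb from Cxcl15, did not pass the filter but reached 1051 counts in WT line 4. Its counts were 0, 91, 10 and 1 in SLMAP3-/- lines 1 to 4 and 1, 2, 153 and 1051 in WT lines 1 to 4. WT line 4 was highest for Cxcl3 and Cxcl15, while WT line 2 had the next highest CPM for Cxcl15 and 2 counts of Cxcl3. Cxcl2 had 3, 50, 2 and 5 counts in SLMAP3-/- and 12, 0, 27 and 2 in WT lines, so its highest line was SLMAP3-/- line 2 and not WT line 4. Cxcl2 and Cxcl3 share 161 stretches of 31 bases, and reads in them could have been divided between the 2 genes. Cxcl1, Cxcl2 and Cxcl3, whose printed promoters share the stretch GGGAATTTCCC, thus followed different orders over the lines.

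Of the interferon-induced CXC chemokines that bind Cxcr3, Cxcl10 was expressed and Cxcl9 and Cxcl11 were at the edge of detection. Cxcl10 was at 5.99, 24.1, 12.3 and 64.2 CPM in SLMAP3-/- lines 1 to 4 and at 25.8, 15.1, 17.7 and 30.9 CPM in WT lines 1 to 4. The SLMAP3-/- lines spanned a 10.7-fold range that enclosed all WT lines. Cxcl9 had 2, 3, 4 and 2 counts in SLMAP3-/- and 2, 1, 6 and 16 in WT lines. Cxcl11, annotated as a polymorphic pseudogene, had 1, 6, 2 and 2 counts in SLMAP3-/- and 2, 0, 25 and 0 in WT lines. Exons of Cxcl10 overlap Art3 on the opposite strand, as those of Cxcl16 and Ccl25 overlap Zmynd15 and Elavl1, and whether the counting used strand is not given in the sources used here.

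Ccl5 (RANTES), which is also induced by interferon and NF-kB and draws T cells, was at 1.47, 5.72, 4.00 and 16.2 CPM in SLMAP3-/- lines 1 to 4. In WT lines 1 to 4 it was at 3.08, 2.73, 4.64 and 7.41 CPM. As with Cxcl10, SLMAP3-/- line 1 was lowest and SLMAP3-/- line 4 highest, 11.04-fold apart.

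Ccl2 (MCP-1) and Ccl7 (MCP-3), which draw monocytes through Ccr2, lie 8.3 kb apart on chromosome 11. Ccl2 was at 132, 60.2, 33.2 and 60.9 CPM in SLMAP3-/- lines 1 to 4 and at 62.7, 82.3, 39.3 and 51.0 CPM in WT lines 1 to 4. Ccl7 was at 44.8, 29.4, 16.0 and 31.8 CPM in SLMAP3-/- and at 24.3, 33.3, 22.3 and 39.5 CPM in WT lines. SLMAP3-/- line 1 was highest and SLMAP3-/- line 3 lowest for both. The neighbouring Ccl8, Ccl11 and Ccl12 reached at most 7, 2 and 0 counts, so the expressed part of this cluster was Ccl2 and Ccl7.

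Cx3cl1 and Cxcl16 are made as transmembrane proteins that can be shed by the proteases Adam10 and Adam17. Cx3cl1 was at 47.7, 19.0, 59.2 and 24.5 CPM in SLMAP3-/- lines 1 to 4 and at 24.9, 35.3, 46.5 and 34.2 CPM in WT lines 1 to 4. Cxcl16, the ligand of Cxcr6, was at 4.90, 6.82, 7.90 and 6.79 CPM in SLMAP3-/- and at 3.84, 3.46, 9.12 and 7.89 CPM in WT lines. Cxcl14, a CXC chemokine of skin and other barrier tissues, was at 17.97, 35.6, 43.4 and 54.3 CPM in SLMAP3-/- and at 24.2, 76.6, 42.8 and 44.4 CPM in WT lines. The WT lines lay within the range of the SLMAP3-/- lines for Cx3cl1, while for Cxcl16 it was the SLMAP3-/- lines that lay within the WT range.

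Among the CC chemokines of epithelia, Ccl25, a thymic and gut chemokine, was the steadiest member. Its lowest and highest lines, at 1.57 and 2.11 CPM, were 1.35-fold apart. Its within-genotype SD of 0.165 was at percentile 25 of the tested genes. Ccl20, which draws cells with Ccr6, was at 0.571, 0.560, 0.305 and 0.978 CPM in SLMAP3-/- lines 1 to 4 and at 1.31, 1.18, 0.0946 and 0.0510 CPM in WT lines 1 to 4. The WT lines fell on both sides of the SLMAP3-/- lines. Ccl28, a mucosal chemokine, was at 0.0173, 0.340, 0.868 and 0.460 CPM in SLMAP3-/- and at 0.0806, 0.0580, 0.0189 and 0.425 CPM in WT lines, with 1 to 54 counts. Ccl9 was at 0.209 to 0.693 CPM in SLMAP3-/- and 0.403 to 0.748 CPM in WT lines. Cxcl17 had 10 counts in SLMAP3-/- line 3 and 0 to 7 in the others.

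Ccl27a, known from keratinocytes (ENSMUSG00000073888.13, chromosome 4, 41769467 to 41774247, - strand), was the member closest to a difference between genotypes. It was at 1.20, 1.94, 2.20 and 0.249 CPM in SLMAP3-/- lines 1 to 4 and at 1.89, 4.68, 5.77 and 4.42 CPM in WT lines 1 to 4. WT lines 2 to 4 were above all SLMAP3-/- lines, and WT line 1 lay among them, so the genotypes overlapped. Of its transcripts' 31-base stretches, 57.0% occur in other annotated genes of the same region, among them Gm20878, Gm13306 and Ccl27b, and its exons also meet those of Il11ra1 on the opposite strand. When Ccl27a was summed with the 5 genes that share its sequence, the sums were 1.49, 2.30, 2.65 and 0.690 CPM in SLMAP3-/- and 2.10, 4.99, 6.59 and 4.61 CPM in WT lines. The log2 ratio of the genotype means of these sums was -1.36. An exact two-sided permutation test of the difference in mean log2 sum, with a small constant added to each sum, gave p = 0.0857 (n = 4 per genotype). Il11ra1 itself was at 44.9 ± 16.0 CPM in SLMAP3-/- and 48.1 ± 20.6 CPM in WT lines (mean ± SD, n = 4).

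To ask whether loss of SLMAP3 was accompanied by a change in chemokine transcripts, the 2 genotypes were compared in 1 edgeR fit over all 15461 tested genes. None of the 16 chemokine ligand genes was called at an adjusted p under 0.05, against 0.00647% of all tested genes (1 gene, Slmap), and DESeq2 called 0 members and 0.0633% of the genes it adjusted, with 1 member (Ccl27a) at an unadjusted p under 0.05. At an unadjusted p under 0.05 edgeR gave 1 member, Ccl27a, or 6.25% of the 16, against 1.81% of all tested genes. In 0 members did the 4 SLMAP3-/- lines lie wholly above or below the 4 WT lines, against 1.25% of all tested genes. Of the 16 log2 fold changes, 10 were positive and 6 negative, with a median of 0.06 against 0.00 over all tested genes. The smallest p that the exact permutation of 4 against 4 lines allows is 0.0286.

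**Figure D2:**
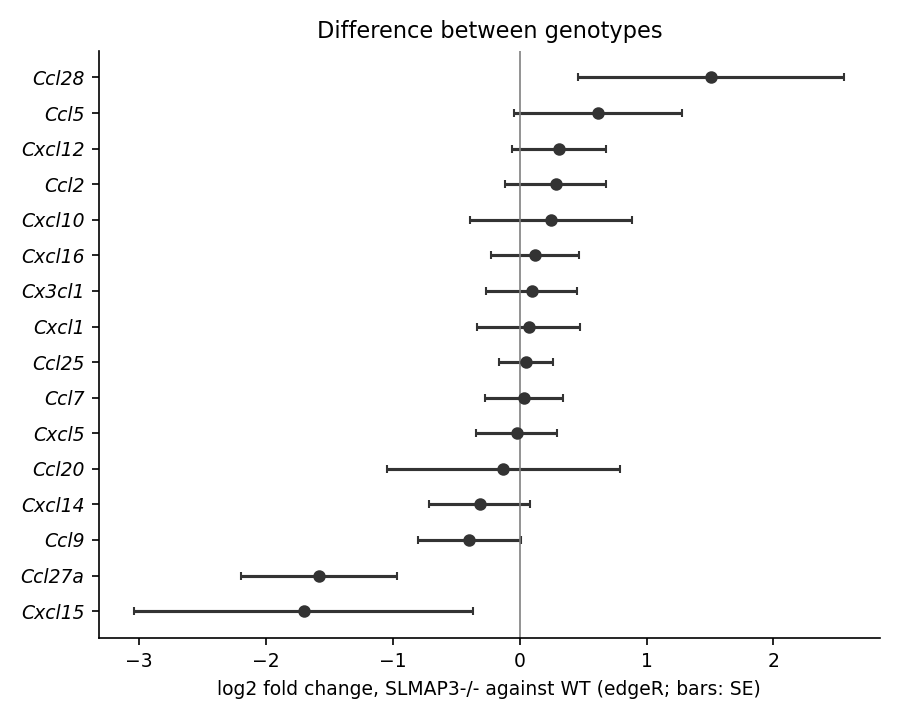
log2 fold change of SLMAP3-/- against WT from edgeR for the 16 genes, with bars of 1 SE (4 lines per genotype) and a grey line at 0. Most genes lie within 1 SE of 0; Ccl27a at -1.58, Cxcl15 at -1.70 and Ccl28 at 1.51 lie farther out, and none had an adjusted p under 0.05.

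Ccl27a was at 1.40 ± 0.88 CPM in SLMAP3-/- and 4.19 ± 1.64 CPM in WT lines (mean ± SD, n = 4). Its log2 fold change was -1.58 ± 0.61 (SE), with an unadjusted p of 0.0309, an adjusted p of 1 in edgeR, and an exact permutation p of 0.0857. Without SLMAP3-/- line 1, WT line 2, WT line 3 or WT line 4 the unadjusted p was 0.0687, 0.0590, 0.0712 and 0.0554. The larger fold changes of Cxcl15 (-1.70 ± 1.33) and Ccl28 (1.51 ± 1.05) came with larger errors, and their unadjusted p-values were 0.235 and 0.187. Leaving out WT line 4 moved them to -0.78 and 2.94, and Ccl28 then had an unadjusted p of 0.0287. For Cxcl12 the difference was 0.31 ± 0.37 and for Ccl2 0.28 ± 0.40. For Cxcl10 and Ccl5 it was 0.25 ± 0.64 and 0.62 ± 0.66, and without SLMAP3-/- line 4 both were negative, at -0.67 and -0.26. The differences of Cxcl5 (-0.02 ± 0.32), Ccl7 (0.03 ± 0.31), Ccl25 (0.05 ± 0.21), Cxcl1 (0.07 ± 0.41), Cx3cl1 (0.09 ± 0.36) and Cxcl16 (0.12 ± 0.34) were under their SE. The same held for Ccl20 (-0.13 ± 0.92), Cxcl14 (-0.31 ± 0.40) and Ccl9 (-0.40 ± 0.40). With errors of this size, differences of the order of 1 on the log2 scale in Cxcl10, Ccl5, Cxcl15, Ccl20 or Ccl28 could not have been told from the spread between lines. The smaller errors of the other members do not show that such a difference would have been called. Even the -1.58 ± 0.61 of Ccl27a did not pass the threshold after adjustment over all tested genes. The summed CPM of the 39 genes was 547 ± 143 in SLMAP3-/- and 498 ± 92.6 in WT lines, a ratio of 1.10, and 0.996 without Cxcl12.

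Within a genotype the lines differed widely in these genes. The median within-genotype SD of log2 CPM was 0.671 over the 16 genes and 0.275 over all tested genes, and 15 of the 16 lay above the latter. In 6 genes (Cxcl10, Cxcl15, Ccl5, Ccl20, Ccl27a and Ccl28) the highest line was at least 10 times the lowest. Counting error adds to the SD of Ccl20 and Ccl28, which had as few as 3 and 1 counts in a line, and is small for Cxcl12, Ccl2, Cxcl5 and Cxcl10, which had at least 346 counts in each line. A wide spread was not confined to chemokine genes. The median SD was 0.732 over 9 fibroblast markers and 0.914 over the 6 tested genes of the cytokine list (Il6, Lif, Csf1, Csf3, Il33 and Tslp). Il1a, Il1b, Tnf, Ifng, Ifnb1 and Il17a did not pass the filter, so that value does not cover them. The median SD was 0.257 over 16 receptor and adaptor genes and 0.197 over 17 inducing factors.

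**Figure D3:**
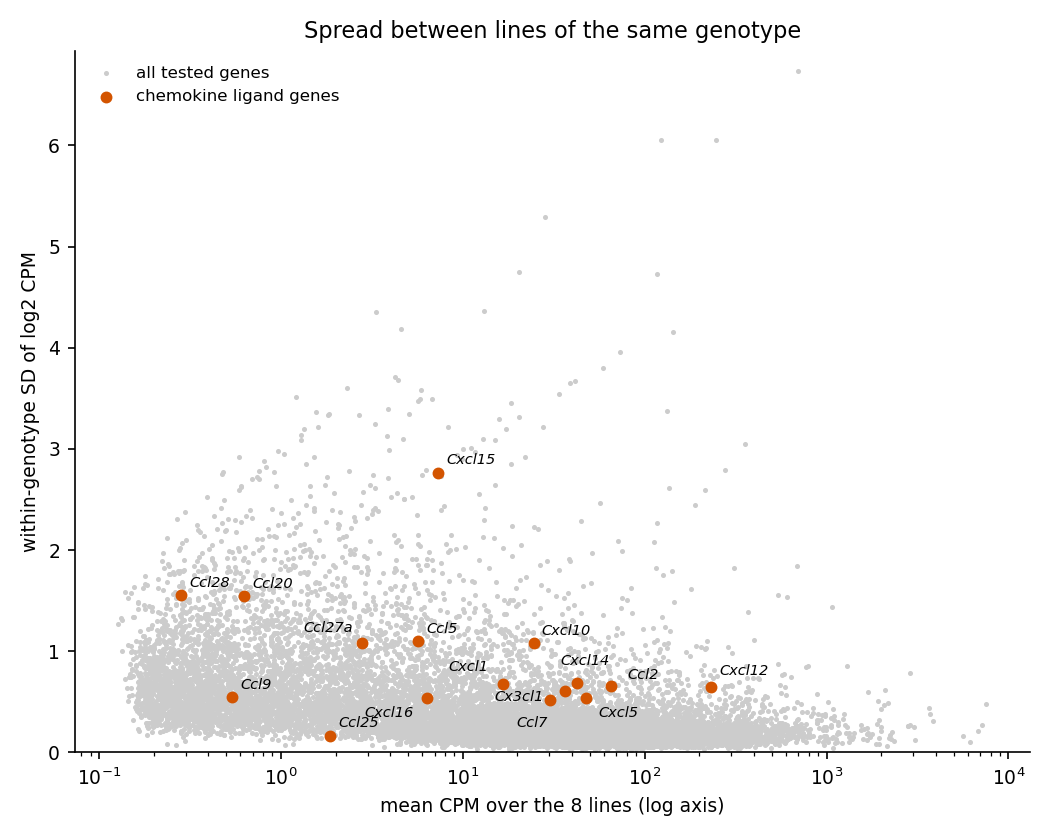
Within-genotype SD of log2 CPM against mean CPM over the 8 lines (log axis) for all tested genes (grey) and the 16 chemokine ligand genes (orange). Cxcl15 at 2.77 is the highest of the 16 and Ccl25 at 0.165 the lowest.

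No single line was high or low for all members. SLMAP3-/- line 3 was lowest for 5 of the 16 genes (Ccl2, Ccl7, Cxcl1, Cxcl5 and Ccl9) and highest for Cx3cl1 and Ccl28. SLMAP3-/- line 1 was highest for Cxcl12, Ccl2 and Ccl7 and lowest for 4 genes, Cxcl10, Ccl5, Cxcl14 and Ccl28. WT line 2 was highest for Cxcl5, Cxcl1 and Cxcl14.

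**Figure D4:**
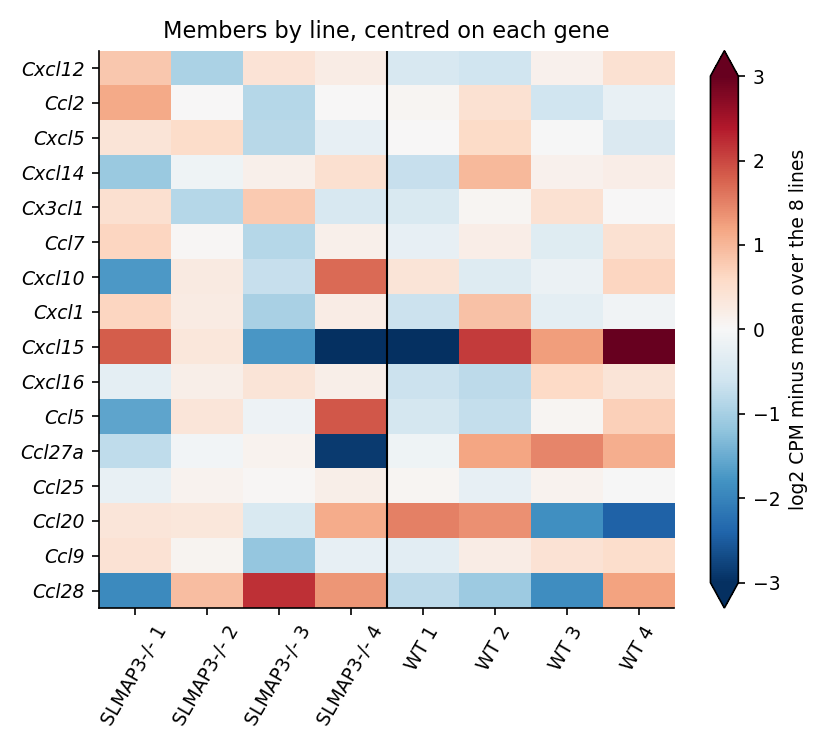
log2 CPM of the 16 genes in each line minus the gene's mean over the 8 lines; red is above and blue below the mean, values beyond 3 either way take the end colour, and the black line parts SLMAP3-/- from WT lines. Cxcl15 runs from -4.01 to 3.35, and no block of colour follows the genotype.

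Among the pairs of genes that share a cluster or an inducer, 3 were compared over the 8 lines, with p-values adjusted over the 3 pairs. Others were not tested, such as those of Cxcl15, which was lowest in WT line 1 and highest in WT line 4 and so followed another order than its neighbours Cxcl1 and Cxcl5. For Ccl2 and Ccl7 Pearson's r of log2 CPM was 0.801 (exact permutation p = 0.0180, adjusted 0.0245) and Spearman's rho 0.690 (exact permutation p = 0.0694, adjusted 0.0694). For Cxcl1 and Cxcl5 r was 0.778 (exact permutation p = 0.0245, adjusted 0.0245) and rho 0.762 (exact permutation p = 0.0368, adjusted 0.0551). Cxcl10 and Ccl5, on different chromosomes, had an r of 0.909 (exact permutation p = 0.00476, adjusted 0.0143) and a rho of 0.810 (exact permutation p = 0.0218, adjusted 0.0551). Within genotypes, as deviations from each genotype's mean, r was 0.812, 0.788 and 0.937. Without the 2 lines farthest from the median of the gene named first, r over 6 lines was 0.395, 0.443 and 0.542, with exact permutation p-values of 0.438, 0.376 and 0.261. The p-values under 0.05 were thus not kept without those lines. Leaving them out also narrows the range, which lowers r, and over 6 lines a larger r is needed for the same p. This step therefore cannot tell a dependence on those lines from the loss of range and of lines. For Cxcl10 and Ccl5, r stayed at 0.825 or more without any 1 line. Without SLMAP3-/- line 1 the adjusted exact permutation p was 0.0698 for Ccl2 and Ccl7, 0.0698 for Cxcl1 and Cxcl5 and 0.0595 for Cxcl10 and Ccl5. Without SLMAP3-/- line 3 it was 0.112 for Ccl2 and Ccl7 and 0.143 for Cxcl1 and Cxcl5, and without WT line 2 it was 0.0764 for Cxcl1 and Cxcl5.

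**Figure D5:**
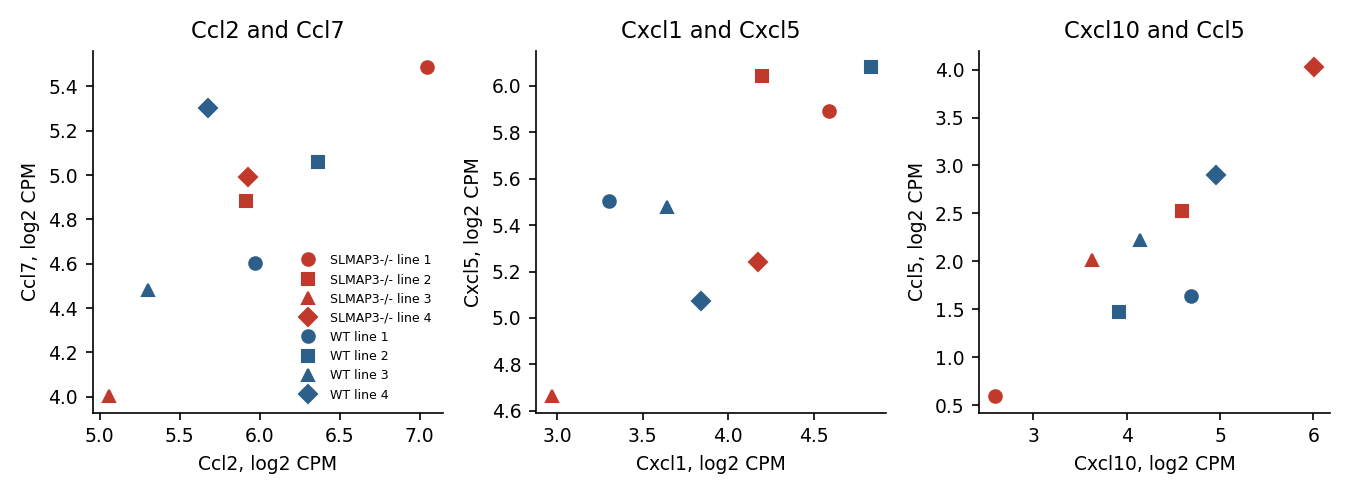
log2 CPM of Ccl7 against Ccl2, Cxcl5 against Cxcl1, and Ccl5 against Cxcl10, with 1 point per line (red SLMAP3-/-, blue WT). The end points are SLMAP3-/- lines 1 and 3 for Ccl2 and Ccl7, SLMAP3-/- line 3 and WT line 2 for Cxcl1 and Cxcl5, and SLMAP3-/- lines 1 and 4 for Cxcl10 and Ccl5.

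The receptors of these ligands were mostly not expressed. Of 24 chemokine receptor genes, 20 were under 10 counts in every line and 3 passed the filter. At an adjusted p under 0.05, 0 were called in edgeR or DESeq2, against 0.00647% and 0.0633% of all genes these tested. In edgeR 1 (Cxcr6) had an unadjusted p under 0.05, against 1.81% of all tested genes. Cxcr3 was at 0 in every line, and Cxcr2, Ccr2 and Cx3cr1 had at most 4, 3 and 3 counts. Ackr3, the scavenging receptor of Cxcl12, was the highest, at 3.77, 12.5, 17.6 and 7.17 CPM in SLMAP3-/- lines 1 to 4 and at 17.1, 10.0, 5.53 and 7.87 CPM in WT lines 1 to 4. Cxcr4, the signalling receptor of Cxcl12, was at 0.139, 0.420, 0.739 and 0.153 CPM in SLMAP3-/- and at 0.177, 1.88, 0.0378 and 1.68 CPM in WT lines. Cxcr6, the receptor of Cxcl16, was at 0.364, 0.440, 0.434 and 0.709 CPM in SLMAP3-/- and at 0.710, 0.755, 0.643 and 3.04 CPM in WT lines. This was a log2 fold change of -1.40 ± 0.57 (unadjusted p = 0.0383 and adjusted p = 1 in edgeR, exact permutation p = 0.0571), and WT line 4 stood above the others. Adam10 (193 to 242 CPM) and Adam17 (81.2 to 119 CPM), which shed Cx3cl1 and Cxcl16, were present in all lines.

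Genes taken as inducers of chemokine transcription were listed together with feedback inhibitors. All 16 receptor and adaptor genes, all 17 factor genes and all 11 feedback genes listed passed the filter, but only 6 of the 13 cytokine genes did. Of these 57 genes in all, 50 passed the filter, 28 were higher and 22 lower in SLMAP3-/- lines, with a median log2 fold change of 0.04. In edgeR and DESeq2 0 were called, against 0.00647% and 0.0633% of all genes these tested. An unadjusted p under 0.05 in edgeR was found for 1.81% of all tested genes. Il1b, Ifng and Il17a were at 0 in every line, Il1a and Ifnb1 reached 2 and 1 counts, and Tnf 11 counts in WT line 3. Csf1, a macrophage growth factor, was the highest cytokine at 176 to 480 CPM, followed by Lif (4.12 to 30.4 CPM), Tslp (1.19 to 22.3 CPM) and Il33 (0.115 to 2.89 CPM). Il6 was at 0.173 to 0.612 CPM. The receptor subunits Il6st, Tnfrsf1a, Ifnar1 and Il1r1 ranged from 529 to 929, 113 to 154, 76.5 to 88.0 and 39.9 to 81.9 CPM. The NF-kB subunit Rela was at 95.4 to 116 CPM, with a within-genotype SD of 0.103. Its inhibitor Nfkbia, itself a target of NF-kB, was at 37.5 to 62.5 CPM. Csf3, the neutrophil growth factor, was the 1 gene of the list with an unadjusted p under 0.05 in edgeR, at 0.257 to 0.690 CPM in SLMAP3-/- and 0.145 to 0.310 CPM in WT lines (log2 fold change 1.08 ± 0.42, unadjusted p = 0.0306, adjusted p = 1 in edgeR). DESeq2 and limma-voom gave 2 such genes, Csf3 and Cebpd, and Cebpd, a C/EBP factor, had a log2 fold change of 0.54 ± 0.24 (unadjusted p = 0.0515 and adjusted p = 1 in edgeR). Of the matrix and protease genes that act on chemokines, Mmp3 had a log2 fold change of 1.54 ± 0.56 (unadjusted p = 0.0242, adjusted p = 1 in edgeR).

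Irf7 varied between lines in an order that matched those of Cxcl10 and Ccl5 only in part. This strongly interferon-induced factor was at 5.78, 16.8, 34.1 and 43.7 CPM in SLMAP3-/- lines 1 to 4 and at 2.77, 5.46, 55.1 and 69.1 CPM in WT lines 1 to 4. It was highest in WT lines 4 and 3, whereas Cxcl10 and Ccl5 were highest in SLMAP3-/- line 4. WT line 1, with the least Irf7, had more Cxcl10 than WT line 3. Among the SLMAP3-/- lines, however, Irf7, Cxcl10 and Ccl5 were each lowest in line 1 and highest in line 4. Among the WT lines each was highest in line 4, and Irf7 and Ccl5 were next highest in line 3. The part of Irf7 in the spread of the chemokines was not tested.

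Fibroblast markers summed to 10230 to 14500 CPM in all lines, of which Col1a1 alone gave 4508 to 7010 CPM, while Dcn and Lum, which mark many fibroblasts, were at 0.323 to 14.8 and 0.113 to 18.5 CPM. The summed CPM of 9 leukocyte and macrophage markers was 5.64 to 10.3 in SLMAP3-/- and 6.93 to 7.98 in WT lines, mostly from Cd14 and Cd68. The defining marker Ptprc (CD45) had at most 9 counts, Adgre1 (F4/80) at most 1, and Tyrobp 0. Of the 9 leukocyte markers 4 passed the filter, namely Cd14, Cd68, Csf1r (0.170 to 1.19 CPM) and Cd3e (0.0767 to 0.260 CPM). In edgeR 0 of them were called, against 0.00647% of all tested genes. Of 5 endothelial markers 2 passed, and Pecam1, Cdh5 and Tie1 did not. Tek, the angiopoietin receptor, was at 12.0, 12.2, 7.82 and 2.11 CPM in SLMAP3-/- lines 1 to 4 and at 1.55, 4.76, 3.88 and 2.70 CPM in WT lines 1 to 4 (log2 fold change 1.41 ± 0.55, unadjusted p = 0.0320 and adjusted p = 1 in edgeR), and its part in the chemokine values was not tested. Kdr, the other, was at 7.87 to 28.4 CPM. Of 4 epithelial markers 2 passed, Epcam at 0.0967 to 1.00 CPM and Cdh1 at 0.323 to 0.959 CPM, and Krt5 and Krt14 did not. Their part in the chemokine values was not tested. Col1a1 had a log2 fold change of -0.30 ± 0.13 (unadjusted p = 0.0458, adjusted p = 1 in edgeR). Ppbp, a platelet chemokine of the chromosome 5 cluster outside the rule, was at 0.321 to 2.44 CPM in SLMAP3-/- and 0.757 to 4.93 CPM in WT lines.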

How the data were processed

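RNA-seq of 4 SLMAP3-/- and 4 WT MEF lines was analysed, grouped by the genotype in the sample labels. Libraries were stranded mRNA libraries. The authors assigned reads to GENCODE M25 transcripts of GRCm38 with Salmon and deposited an estimated count per gene and line, scaled for transcript length and not normalised between lines. The version of Salmon and the use of strand in counting are not given in the sources used here. The authors' table of DESeq2 fold changes and p-values was not used.

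Estimated counts were rounded. In R 4.3.3, edgeR 4.0.16 (filterByExpr with a minimum count of 10, TMM, glmQLFit and glmQLFTest, genotype alone) was fitted on all genes, with Benjamini-Hochberg adjustment over the 15461 tested genes and a threshold of 0.05. CPM are TMM-normalised, and log2 values used a prior count of 2. Within-genotype SDs are of these log2 values, and a fitted SE is the log2 fold change divided by the root of its F. Exact permutation tests (scipy 1.17.1) are two-sided. Lengths, positions and 31-base stretches shared between transcripts came from GENCODE M21, an earlier release than the authors' M25 on the same build, and promoters from RefSeq. DESeq2 1.42.0 and limma-voom (limma 3.58.1) were among the alternatives, which also changed the size factors, filter, rounding, prior count and replicate block and left out each line. edgeR, DESeq2 and limma-voom were tested on simulated data.

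The members and gene lists were chosen with earlier results of these data known. Named are all members with at least 10 counts in some line, receptors that passed the filter, and of each other list up to 4 genes of high mean CPM and those with an unadjusted p under 0.05. Irf7, Cebpd, Il6, Cd68, Cd14, Csf1r, Cd3e, Epcam, Cdh1 and genes named for being near 0 were named after their values were seen. The sum over the copies of Ccl27a was also added after seeing the data.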

Additional observations from a re-analysis of the deposited data

Results flagged for a closer look

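Of 34 groups of 4 lines checked for a line far from the others (the 16 tested genes and the sum of all 39 members, in each genotype), 1 stood out, where chance gives about 1 in 20 groups. Ccl28 in WT line 4 was at 0.425 CPM, against 0.0189 to 0.0806 CPM in WT lines 1 to 3, and its gap to the nearest line was 0.848 of the group's range, past Dixon's 95% limit for 4 samples.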

How the results depend on the processing

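The count of called chemokine ligand, receptor, and inducer and feedback genes was 0 under every alternative run: DESeq2, limma-voom, other size factors, filters, rounding, robust empirical Bayes, a threshold of 0.1, the replicate block and leaving out each line. The lowest adjusted p of a member was 0.786, without a filter. The replicate numbers do not pair the lines (correlations of deviations -0.157, 0.058, 0.187 and -0.003), and with the replicate block the calls over all genes went from 1 to 0 and members stayed at 0. The sign of the log2 fold change turned in 30 of 254 refits of single members, in 11 of the 16 genes. With the replicate block it was 0.58 for Ccl20, -0.024 for Cx3cl1, -0.19 for Cxcl10 and -0.027 for Ccl7. With limma-voom it was 0.83 for Ccl20, -0.29 for Cxcl10 and -0.032 for Ccl7. Leaving out each line in turn gave -0.071 to 0.384 for Cxcl16, -0.541 to 0.028 for Cxcl14, -0.020 to 0.125 for Ccl25, -0.513 to 0.458 for Ccl20, -0.224 to 0.192 for Cxcl5, -0.142 to 0.487 for Cxcl1, -0.211 to 0.319 for Cx3cl1, -0.665 to 0.583 for Cxcl10, -0.260 to 0.978 for Ccl5, -0.213 to 0.247 for Ccl7 and -0.195 to 0.523 for Ccl2. The cause was not tested, and none of these values passed the threshold. The correlations kept their sign. Leaving out each line in turn gave an r of 0.693 to 0.941 for Ccl2 and Ccl7, 0.618 to 0.856 for Cxcl1 and Cxcl5, and 0.825 to 0.973 for Cxcl10 and Ccl5. The ratio of the summed CPM lay between 0.975 and 1.20 without 1 line.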
